A study of Mus musculus with 6 samples.

Results

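The corticosteroid receptors of the mouse prefrontal cortex (PFC), the chaperones that fold them, coregulators that act with them and the enzyme that regenerates their ligand were followed through RNA-seq of mice exposed to early life stress (ELS). The genes were taken by symbol: the receptors Nr3c1 and Nr3c2, the chaperones Fkbp4, Hsp90ab1, Ptges3 and Stip1, the coregulators Ncoa1, Ncoa2 and Ncor1, and the steroid enzyme Hsd11b1. All 10 were found among the 22000 symbols of the count table, and all 10 were expressed highly enough to be tested, among 13185 genes tested in all. The samples were PFC of male C57BL/6N mice at 9 weeks of age, 3 control mice and 3 ELS mice, with 1 library per mouse. In this study ELS was social isolation: a mouse was housed alone under a filter cap from weaning into adolescence, whereas control littermates shared a cage without a cap. Behavioural testing preceded dissection in the study, and each mouse stayed in its own type of housing until then. None of the 10 genes passed the test of ELS against control mice, which 0.0152% of all genes tested passed. The groups overlapped for each of the 10, and they did not overlap in 8.28% of all genes, so neither count sets the members apart. With all 6 mice, every estimate lay within 10% of the control level. With single mice left out, log2 fold changes reached -0.214 for Hsd11b1 and 0.168 for Nr3c2.

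Corticosterone, the main glucocorticoid of the mouse, reaches the brain from the adrenal gland and binds a pair of nuclear receptors. The mineralocorticoid receptor, encoded by Nr3c2, binds it with high affinity, and the glucocorticoid receptor, encoded by Nr3c1, is filled mainly at the daily peak of the hormone and during stress. Before the hormone binds, the receptor is held in a complex with Hsp90 and co-chaperones, and after binding it moves to the nucleus, where it recruits coactivators or corepressors at its target genes. The enzyme 11-beta-hydroxysteroid dehydrogenase type 1, encoded by Hsd11b1, converts inert 11-dehydrocorticosterone back to corticosterone inside cells.

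Promoter sequence, from 250 bases before to 50 bases after an annotated start site, was found in RefSeq (GRCm38.p6) for 7 of the 10 genes, and it was searched for the recognition letters of heat shock factors and of the glucocorticoid receptor. The first motif is the core of the heat shock element, GAANNTTC or TTCNNGAA, the letters bound by heat shock factors, which drive chaperone genes. It was present in 15.1% of the 32851 promoter windows of this length, and here in Fkbp4 and Nr3c2. The other is the half-site of the glucocorticoid response element, TGTTCT on either strand, which was present in 19% of all windows, and here 1 time in Ncoa1, 39 bases after the start site, and 2 times in the downstream of the 2 windows of Ncor1, 185 and 12 bases before it. The windows of Ptges3, Stip1 and Hsd11b1 held neither. Of these 5 matches 3 are shown, both heat shock element cores and the half-site nearest to a start site. The lines below give the sense strand from 5′ to 3′ with the matched letters in capitals. The Fkbp4 stretch lies at chr6:128438774-128438833 on the minus strand, the Nr3c2 stretch at chr8:76902153-76902212 on the plus strand, and the Ncor1 stretch, which spans the start site, at chr11:62438496-62438553 on the minus strand.
Fkbp4: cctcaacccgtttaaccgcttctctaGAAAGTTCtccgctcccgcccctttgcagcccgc
Nr3c2: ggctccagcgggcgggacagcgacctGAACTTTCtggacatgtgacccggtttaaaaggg
Ncor1: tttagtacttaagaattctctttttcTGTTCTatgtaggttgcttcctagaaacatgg
The Fkbp4 and Nr3c2 matches both began 151 bases before the start site. A match describes letters in this window and is not a measured binding site.

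The libraries held between 28405795 and 35241743 counts, and each ELS library was deeper than each control library. Values are given as CPM, counts relative to library size, scaled by the trimmed mean of M-values (TMM) with factors from 0.992 to 1.02. Groups were compared by the quasi-likelihood test of edgeR across all 13185 genes, and a gene was called at a Benjamini-Hochberg adjusted p under 0.05 with an absolute log2 fold change above 0.3. Markers of cortical neurons were present in every library, and 0 of the markers of any cell type were called. The summed level of the 7 markers of striatal projection neurons found in the table was 467 CPM in control mouse 3 and 443 CPM in ELS mouse 1, against 243 to 316 CPM in the other 4 mice, and no marker found in the table was at 0. The summed level of 4 oligodendrocyte markers was also highest in those mice, at 6210 and 5532 CPM against 4700 to 5196 CPM. In bulk tissue, fewer cells that express a gene and less RNA per cell cannot be told apart.

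Levels of different genes were compared per length, as TPM (counts per base, scaled to the same total in every library) over the exons annotated in GENCODE M21. The chaperones were the most abundant members. Hsp90ab1, which encodes the constitutive cytosolic Hsp90 beta, reached 2064 ± 132 TPM (SD, n = 6 mice), 5.70 times the level of the next member. Stip1, whose product hands client proteins from Hsp70 to Hsp90, followed at 362 TPM, between 333 and 389 TPM. Ptges3, which encodes the co-chaperone p23 that stabilises the mature receptor complex, had 224 ± 7.65 TPM, and Fkbp4, the immunophilin FKBP52 that favours transport of the receptor to the nucleus, had 171 ± 6.40 TPM. Nr3c1 came next at 88.0 ± 5.43 TPM and the corepressor gene Ncor1 at 82.4 ± 7.41 TPM, and the ranges of these neighbours overlapped, with Nr3c1 higher in 5 of 6 mice. The coactivator gene Ncoa1 stood at 64.6 ± 5.57 TPM. Ncoa2, a coactivator of the same family, had 28.7 ± 2.58 TPM and Nr3c2 26.7 ± 2.26 TPM, and these also overlapped. Hsd11b1 was lowest at 18.8 ± 2.20 TPM. All other neighbours in this order were separated in every mouse.

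**Figure D1:**
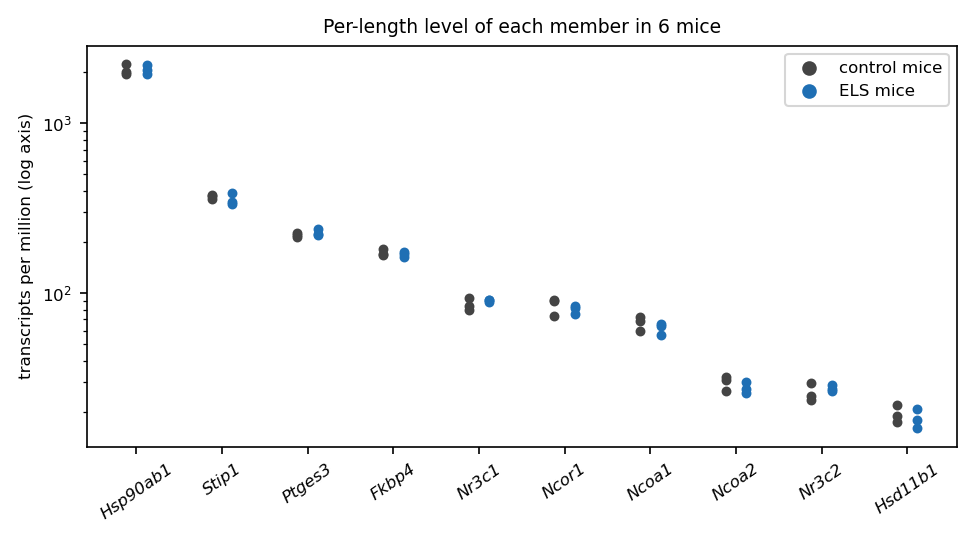
Per-length level of the 10 members, in TPM on a log axis, with 1 point per mouse (3 control mice and 3 ELS mice). Hsp90ab1 lies near 2064 TPM and Hsd11b1 near 18.8 TPM, and control and ELS points of each gene overlap.

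For both receptors the values of the ELS mice lay inside the range of the control mice. The gene Nr3c1 occupies bases 39410545 to 39519421 of chromosome 18 in GRCm38, on the minus strand, with no annotated overlap of its exons by another gene. It had 165, 147 and 146 CPM in control mice 1 to 3 and 157, 162 and 163 CPM in ELS mice 1 to 3. All 3 ELS values fell between the highest and the lowest control value. The means were 153 ± 10.7 CPM in the controls and 161 ± 3.01 CPM after ELS (SD, n = 3 each). The log2 fold change was 0.07 (standard error, SE, 0.0691, with an adjusted p of 1.0 by edgeR's quasi-likelihood test), that is a difference of 5.10% with a 95% interval from -5.27% to 16.6%.

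Nr3c2 lies on chromosome 8 from 76899442 to 77245012 (plus strand), and 3.82% of its exon length is shared with a noncoding gene on the opposite strand. It had 43.6, 37.0 and 36.4 CPM in the controls and 42.9, 40.8 and 39.9 CPM after ELS. Control mouse 1 was the highest of the 6 for both receptors. The log2 fold change was 0.08 (SE 0.0828, with an adjusted p of 1.0 by the quasi-likelihood test), a difference of 5.63% with a 95% interval from -6.74% to 19.6%. With single mice left out, the log2 fold change ran from 0.03 (without control mouse 3) to 0.17 (without control mouse 1) for Nr3c2 and from 0.04 to 0.13, for the same mice, for Nr3c1.

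The balance of the receptors was read within each library, where it does not depend on library scaling. The ratio of Nr3c2 to Nr3c1 counts was 0.264, 0.251 and 0.249 in controls, and it was 0.273, 0.252 and 0.245 in ELS mice. The groups overlapped fully, and the ELS mice held both the highest and the lowest ratio. On the log2 scale the mean ratio was -1.97 ± 0.0457 in controls and -1.96 ± 0.0813 in ELS mice (SD, n = 3 each), a difference of 0.01 (exact permutation test, two-sided, p = 0.8, adjusted over 6 ratios tested p = 1.0, where 0.1 is the smallest p that 3 against 3 mice allow). With single mice left out, the difference in log2 ratio ran from -0.035 (without ELS mouse 1) to 0.044 (without ELS mouse 3). Per length, Nr3c2 was present at 0.290 to 0.324 times the level of Nr3c1 over the 6 mice.

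**Figure D2:**
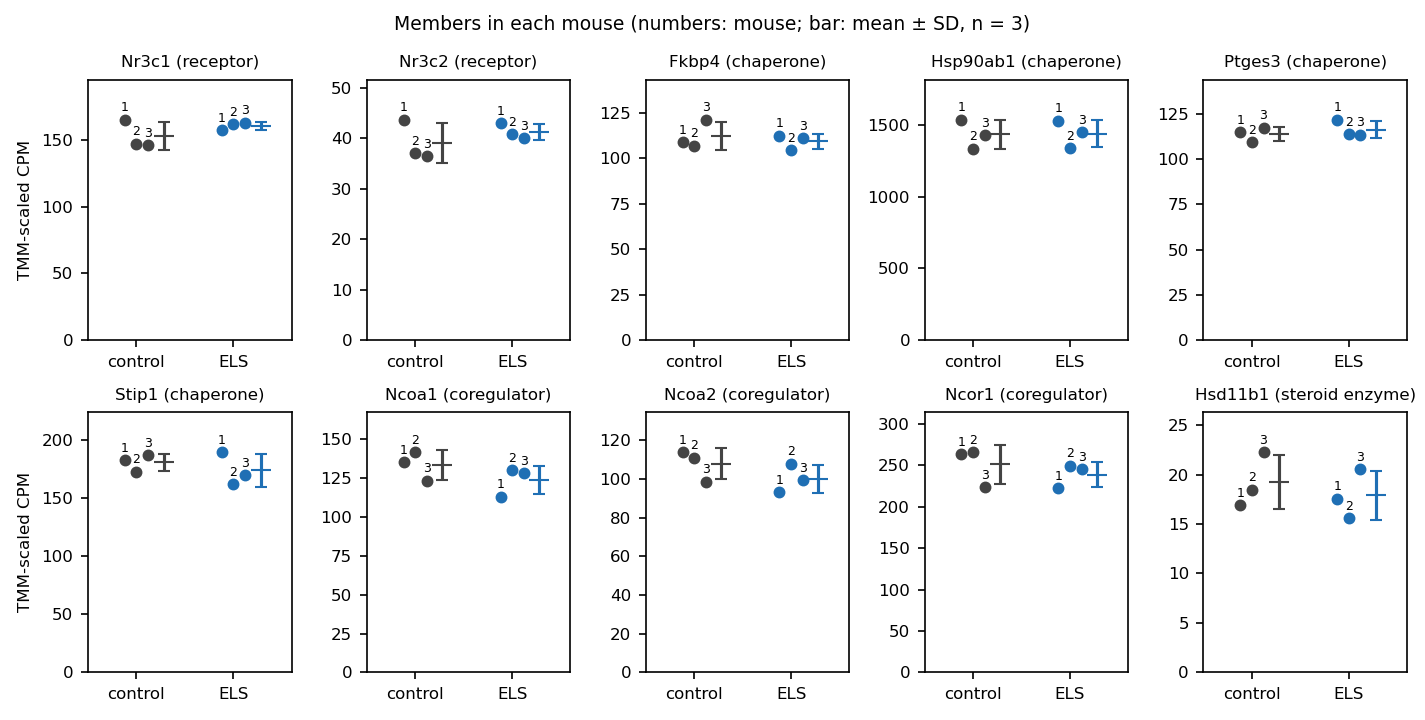
TMM-scaled CPM of each member in 3 control mice and 3 ELS mice, from 0, with the mouse number above each point and the group mean ± SD beside it (n = 3). The groups overlap in all 10 panels, and Hsd11b1 has the widest spread relative to its level.

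The 4 chaperones had the estimates nearest to 0. Hsp90ab1, on chromosome 17 from 45567775 to 45573271 (minus strand), had 1537, 1336 and 1429 CPM in the controls and 1531, 1340 and 1448 CPM after ELS. The 2 groups spanned nearly the same range. Its log2 fold change was 0.01 (SE 0.0730, with an adjusted p of 1.0 by the quasi-likelihood test), a difference of 0.412% with a 95% interval from -10.0% to 12.1%. Fkbp4, on chromosome 6 from 128429735 to 128438677 (minus strand), had 109, 107 and 121 CPM in the controls and 112, 105 and 111 CPM after ELS. Control mouse 3 was the highest and ELS mouse 2 the lowest, and the log2 fold change was -0.04 (SE 0.0708). Ptges3, on chromosome 10 from 128058954 to 128077272 (plus strand), had 115, 109 and 117 CPM in the controls and 122, 114 and 113 CPM after ELS, with a log2 fold change of 0.03 (SE 0.0654). It had the smallest spread of the 10 genes, with a within-group SD of 0.0548 on the log2 scale. Stip1, on chromosome 19 from 7020702 to 7039967 (minus strand), had 183, 173 and 187 CPM in the controls and 190, 162 and 170 CPM after ELS, and ELS mice 2 and 3 were the lowest. Its log2 fold change was -0.06 (SE 0.0740), with a 95% interval from -0.22 to 0.10. With single mice left out, the value for Stip1 ran from -0.126 (without ELS mouse 1) to -0.010 (without ELS mouse 2). Another gene carries at least 151 bases at 95% identity or more for Ptges3 and for Stip1, as does another for Ncor1, and counts of these genes are uncertain to that extent.

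The 3 coregulators all had lower means in ELS mice, but none of them passed the test and the groups overlapped for each. Ncoa1 encodes SRC-1 and Ncoa2 encodes SRC-2, coactivators of the p160 family that bridge the bound receptor to histone acetyltransferases. Ncoa1, on chromosome 12 from 4247362 to 4477182 (minus strand), had 135, 142 and 123 CPM in the controls and 113, 130 and 128 CPM after ELS. ELS mouse 1 was the lowest, and ELS mice 2 and 3 lay between control mice 3 and 1. The means were 133 ± 9.36 CPM and 124 ± 9.21 CPM (SD, n = 3 each), which gave a log2 fold change of -0.11 (SE 0.0776, with an adjusted p of 1.0 by the quasi-likelihood test) and a difference of -7.24% with a 95% interval from -17.5% to 4.24%. Ncoa2, on chromosome 1 from 13139105 to 13374083 (minus strand), had 114, 111 and 98.6 CPM in the controls and 93.2, 108 and 99.2 CPM after ELS. It gave a log2 fold change of -0.11 (SE 0.0784). Ncor1, on chromosome 11 from 62316426 to 62458541 (minus strand), encodes the corepressor that brings the histone deacetylase HDAC3 to nuclear receptors. It had 263, 266 and 223 CPM in the controls and 222, 249 and 245 CPM after ELS. Control mouse 3 and ELS mouse 1 stood together at the bottom, below the other 4 mice, and the log2 fold change was -0.07 (SE 0.0808). The ratio of Ncor1 to Ncoa1 counts ran from 1.81 to 1.95 in control mice and from 1.91 to 1.96 in ELS mice, with overlapping groups (exact permutation test, two-sided, p = 0.3, adjusted p = 0.6).

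Hsd11b1 was the least abundant and the most variable member. It lies on chromosome 1 from 193221634 to 193264075 (minus strand) and had 16.9, 18.5 and 22.3 CPM in the controls and 17.5, 15.6 and 20.5 CPM after ELS. Mouse 3 was the highest in each group. The means were 19.2 ± 2.76 CPM and 17.9 ± 2.48 CPM (SD, n = 3 each). The log2 fold change of -0.10 (SE 0.122, with an adjusted p of 1.0 by the quasi-likelihood test) is a difference of -6.96% with a 95% interval from -22.5% to 11.8%, the widest of the 10. H6pd, which encodes the enzyme that supplies the NADPH for this reaction in the endoplasmic reticulum, had 8.53 ± 0.726 CPM in the controls and 8.65 ± 1.10 CPM after ELS. Hsd11b2, the enzyme that inactivates corticosterone in tissues where Nr3c2 serves aldosterone, had 0 counts in 5 mice and 1 count in ELS mouse 3. A count of 0 allows up to 3 counts in a library, at most 0.106 CPM here, for counting error only. Hsd11b2 and H6pd were named after their values were seen.

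Across the 10 members, 0 were called by edgeR's quasi-likelihood test, against 0.0152% of all genes tested, which is 2 genes. At an unadjusted p under 0.05 the count was also 0 of 10 in edgeR, against 4.23% of all genes, and 0 of 10 in DESeq2, against 3.72%. The smallest member p in edgeR was 0.187, for Ncoa1. The groups overlapped in all 10 members, and they did not overlap in 8.28% of all genes, so 0 of 10 does not set the members apart. The log2 fold changes ran from -0.11 to 0.08, 4 above and 6 below 0, with a median of -0.05 against a median near 0 (-0.0046) over all genes. The sign turned for Hsp90ab1, Fkbp4, Ptges3 and Hsd11b1 when single mice were left out. The median of the members also turned, to 0.0077, without control mouse 3. The within-group SD of log2 CPM had a median of 0.102 for the members and 0.113 for all genes. The 95% intervals reached no further than 0.368 from 0 in either direction. They lay within 0.3 of 0 for 9 of the members and passed it for Hsd11b1 alone, on the lower side. Differences smaller than these bounds were not resolved with 3 mice per group.

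**Figure D3:**
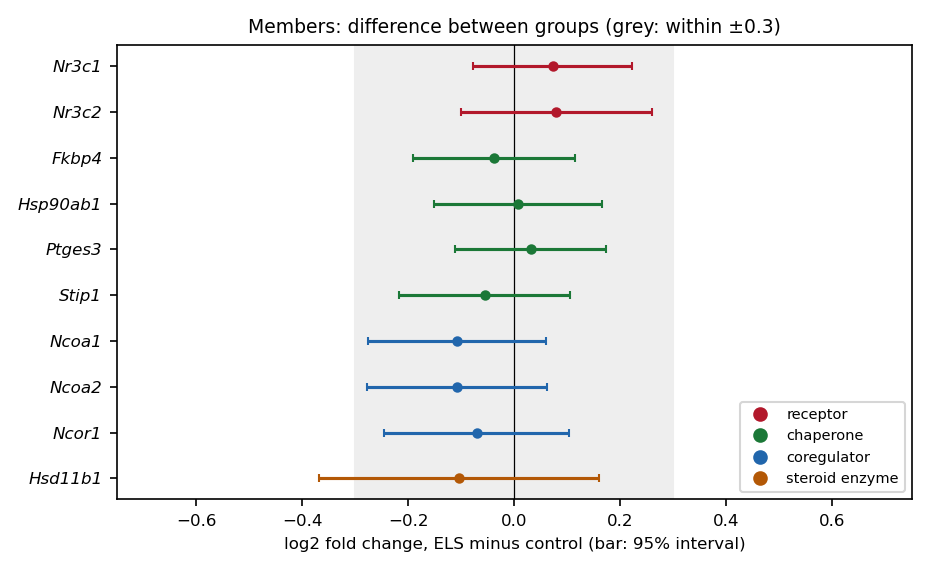
Log2 fold change of each member, ELS minus control, as a point with its 95% interval from edgeR's quasi-likelihood fit of 3 control and 3 ELS mice, coloured by role. Every interval includes 0, and only that of Hsd11b1, which reaches -0.37, leaves the grey band of ±0.3.

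Within a role, members tended to deviate in the same mice. The mean of Ncoa1, Ncoa2 and Ncor1, on the log2 scale and relative to all 6 mice, was 0.11 in control mouse 1, 0.12 in control mouse 2 and 0.03 in ELS mouse 2, but -0.02 in ELS mouse 3, -0.09 in control mouse 3 and -0.16 in ELS mouse 1. The mean of the chaperones was highest in ELS mouse 1 at 0.07 and in control mouse 3 at 0.06, and lowest in ELS mouse 2 at -0.08 and control mouse 2 at -0.06. All 3 coregulators were low in control mouse 3 and ELS mouse 1. All 4 chaperones were above their mean in ELS mouse 1, but in control mouse 3 Fkbp4 stood at 0.13, Stip1 at 0.08, Ptges3 at 0.03 and Hsp90ab1 at -0.0054, and Hsp90ab1 was highest in control mouse 1 at 0.10. Control mouse 3 and ELS mouse 1 also had the highest striatal and oligodendrocyte marker levels, given above. In the same mice the summed level of 5 cortical projection neuron markers was lowest, at 362 and 357 CPM against 378 to 426 CPM. That of 5 blood markers was highest there, at 85.2 and 79.7 CPM against 51.0 to 64.4 CPM. The level of 2 oligodendrocyte precursor markers was lowest in these mice, at 54.9 and 59.9 CPM against 62.2 to 73.1 CPM. Summed markers of neurons, astrocytes, microglia, endothelial cells and choroid plexus did not set these mice apart from the others.

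The exons of the coregulators sum to 8576 to 15642 bases, those of the receptors Nr3c2 and Nr3c1 to 6474 and 7684 bases, and those of the chaperones to 2108 to 2999 bases. Over the other genes tested, the median deviation of 5814 genes with at least 5000 exonic bases minus that of 3090 genes with at most 3000 was 0.10 in control mouse 1, 0.08 in control mouse 2 and 0.05 in ELS mouse 2. It was -0.03 in ELS mouse 3, -0.07 in ELS mouse 1 and -0.15 in control mouse 3. The sign of this difference matched the sign of the coregulator mean in all 6 mice. It matched that of the mean of the receptors, whose exons are also long, in 3 of 6 mice, and it was opposite to that of the chaperone mean in 4 of 6 mice. With the striatal marker level as a covariate, added after the data were seen, the log2 fold change was -0.07 for Ncoa1, -0.07 for Ncoa2 and -0.03 for Ncor1, against -0.11, -0.11 and -0.07 without it. For Nr3c1, Nr3c2, Fkbp4, Stip1 and Hsd11b1 it lay further from 0 with the covariate, at 0.089, 0.094, -0.063, -0.083 and -0.141. The value of Ptges3 moved toward 0 (0.015), and that of Hsp90ab1 turned to -0.0045. The part of gene length, RNA quality or tissue composition in the coregulator values was not tested.

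**Figure D4:**
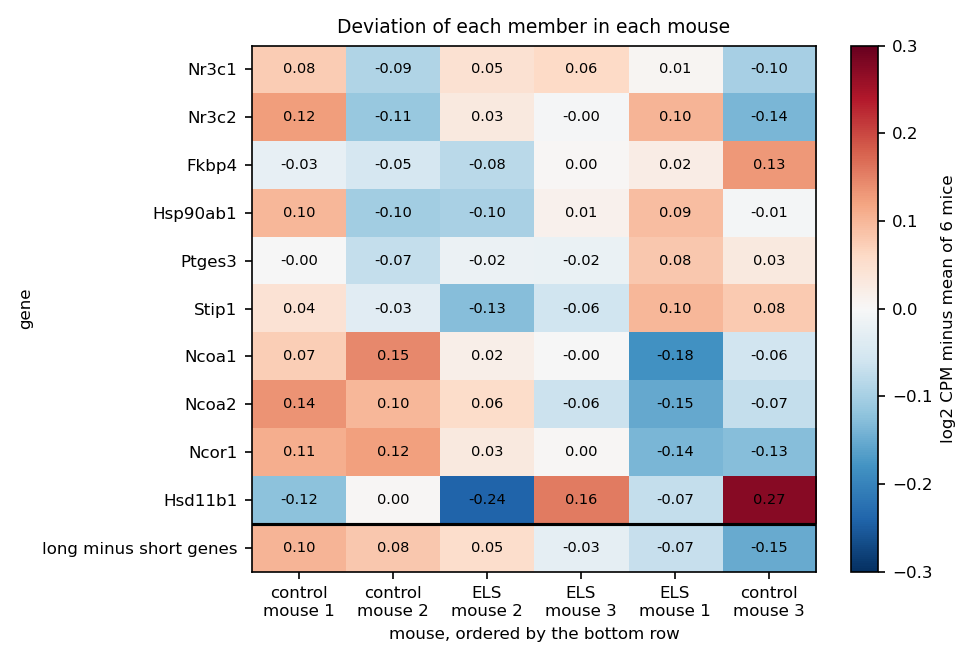
Deviation of log2 CPM of each member from its mean over the 6 mice, with mice ordered by the bottom row, which gives the median deviation of long genes minus that of short genes. All 3 coregulators are above 0 in the 3 mice on the left and below 0 in the 2 mice on the right, with values between -0.06 and 0.0042 in ELS mouse 3, and Hsd11b1 ranges from -0.24 to 0.27.

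The estimates of the coregulators moved with single mice. Without ELS mouse 1, Ncoa1, Ncoa2 and Ncor1 had log2 fold changes of -0.05, -0.06 and -0.02. Without control mouse 3, Ncoa1, Ncoa2 and Ncor1 had log2 fold changes of -0.16, -0.17 and -0.15 and unadjusted p of 0.0346, 0.0267 and 0.0402 in edgeR's quasi-likelihood test, with adjusted p of 0.387, 0.373 and 0.404. That made 3 of 10 members at an unadjusted p under 0.05, against 11.7% of all genes in that fit. Leaving out control mouse 3 moved other members as well, to 0.01 for Hsd11b1 and 0.02 for Fkbp4, both from below 0. With control mouse 3 left out, 5 of the 25 further coregulators also reached this p, all lower in ELS mice. Among them were Ncoa3, Nsd1, Crebbp and Carm1, which were named after their values were seen. None of the 10 members was called in any of the 15 other fits, among them those that left out each mouse in turn, and the smallest adjusted p of a member was 0.373.

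The rest of the pathway was followed in lists written by hand. Of 17 further genes of the Hsp90 and Hsp70 machinery, 0 were called by edgeR's quasi-likelihood test and 1, Fkbp5, was called by DESeq2 and by the likelihood ratio test. The shares of all genes called in these fits were 0.0152%, 0.137% and 0.212%, in that order. Fkbp5 alone had an unadjusted p under 0.05 in the quasi-likelihood test, which is 5.88% against 4.23% of all genes. The median log2 fold change of this list was -0.0041, and it ran from -0.036 (without control mouse 2) to 0.0097 (without control mouse 1) with single mice left out. Of 25 further coregulators, 0 had an unadjusted p under 0.05, and the median was -0.02, with 8 above and 17 below 0. With single mice left out this median ran from -0.078 (without control mouse 3) to -0.0074 (without ELS mouse 1), and it was -0.060 without ELS mouse 2. Of 29 genes of steroid synthesis, metabolism and transport, 18 could be tested and 0 of these had an unadjusted p under 0.05, with a median of -0.03. That median ran from -0.058 (without ELS mouse 1) to 0.01 (without ELS mouse 2), so its sign was not stable. The adrenal enzymes Cyp11b1, Cyp11b2 and Cyp21a1, named after their values were seen, had 0 counts in every mouse. Of 7 related nuclear receptors listed, 6 could be tested and 0 of these had an unadjusted p under 0.05.

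Genes known to be induced by corticosteroids were read in the same mice as a list of their own. All 13 of the list had log2 fold changes below 0, with a median of -0.26. At an unadjusted p under 0.05 there were 6 of 13, all lower in ELS mice, and 1, Zbtb16, was called by the quasi-likelihood test, against 4.23% and 0.0152% of all genes. DESeq2 and the likelihood ratio test each called 3, which were Zbtb16, Fkbp5 and Tsc22d3, against 0.137% and 0.212% of all genes. With the striatal covariate 4 were called, against 0.235% of all genes. The list is not independent evidence, since it was written with earlier results on these mice known, the low values of Zbtb16, Fkbp5 and Tsc22d3 among them. Zbtb16, a transcription factor gene, had 49.8, 60.2 and 52.2 CPM in the controls and 29.5, 30.9 and 31.0 CPM after ELS, which gave -0.83 as its log2 fold change (SE 0.0819, with an adjusted p of 0.003 by edgeR's quasi-likelihood test). Tsc22d3, which encodes the leucine zipper protein GILZ, gave -0.49 and Dusp1, a phosphatase gene of MAP kinase feedback, -0.34, and neither passed the adjusted threshold (adjusted p = 0.324 and 0.714 in that test). Over the 15 other settings Zbtb16 was called in 15, Tsc22d3 in 4 and Dusp1 in 0. Without control mouse 3 the median of the list was -0.15, with 11 of 13 below 0, and 3 genes were called, against 0.219% of all genes. In that fit 1 gene, Ddit4, was higher at an unadjusted p under 0.05, with a log2 fold change of 0.25, and it was named after its value was seen. A test of the difference between this list and the members was not made.

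Fkbp5 encodes FKBP51, the immunophilin that competes with FKBP52 for the receptor complex and lowers its affinity for hormone. It had 30.0, 34.3 and 36.3 CPM in the controls and 26.2, 24.7 and 20.8 CPM after ELS, so the 3 ELS values all lay under the lowest control value. Its log2 fold change was -0.49 (SE 0.101, with an adjusted p of 0.322 by the quasi-likelihood test). The call depended on the tool, since the adjusted p was 0.0159 by DESeq2 and 0.00539 by the likelihood ratio test, and Fkbp5 was called in 3 of 15 other settings, with adjusted p from 0.00292 to 0.999. The paper found its differentially expressed genes with DESeq and reports that qPCR bore out their expression. Its qPCR primers include Fkbp5, Tsc22d3 and Zbtb16. The ratio of Fkbp5 to Fkbp4 counts was 0.276, 0.321 and 0.2997 in controls, and it was 0.233, 0.236 and 0.187 in ELS mice. This ratio was chosen with the change of Fkbp5 known and is given as a description.

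**Figure D5:**
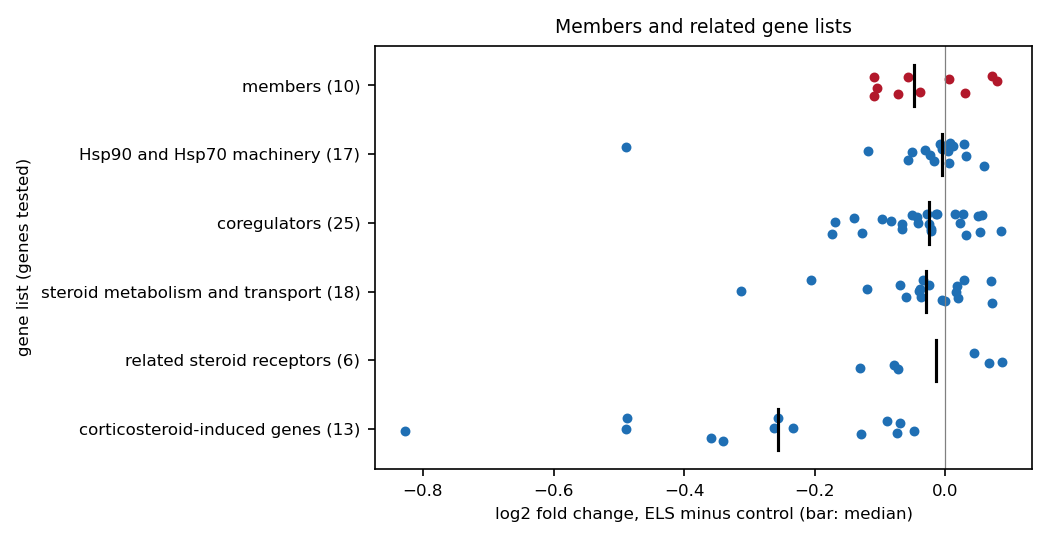
Log2 fold change, ELS minus control, of the 10 members and of the genes tested in each related list, with 1 point per gene and the list median as a bar, where Fkbp5 stands in 2 lists. Medians lie between -0.05 and 0 except for the corticosteroid-induced genes, whose 13 points are all below 0 with a median of -0.26.

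Among 10082 other genes with a mean of at least 10 CPM, those with the profile most like a member over the 6 mice were ranked by the root-mean-square difference of centred log2 CPM. For Nr3c1 they were Rfc1, Wdr33 and Rnf19b, at 0.0117, 0.0190 and 0.0207. For Nr3c2 they were Cnot4, Rint1 and Dnajc2, at 0.0270, 0.0275 and 0.0276, and for Hsd11b1 Psph, Katna1 and Dpy30, at 0.0416, 0.0419 and 0.0429. The members' own profiles had a root-mean-square deviation of 0.0699, 0.0985 and 0.172. With 6 libraries and this many genes, close profiles arise readily, and the list is a description only.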

How the data were processed

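Libraries from the PFC of 6 mice were sequenced with 151 bp reads. The authors trimmed reads, aligned them to mm10 with STAR and counted uniquely mapped reads with HTSeq, and the deposited values are raw counts for each symbol without normalization. The submitters' processing notes give STAR 2.7.1a and HTSeq 0.9.1, whereas the paper names another STAR version. The strand setting and annotation release are not given in the sources used here. Columns of the isolated mice carry that term in place of ELS and were assigned by it and by number.

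The 13185 genes that reached 1 CPM in every mouse of at least one group entered the test, fitted in edgeR 4.0.16 (R 4.3.3) with TMM factors, a quasi-likelihood test and condition as the only term. SEs were obtained from F, and p-values were adjusted by Benjamini-Hochberg over all genes tested. Exon lengths and positions came from GENCODE M21 (GRCm38), to which 89.0% of symbols matched. DESeq2 1.42.0, limma 3.58.1, other scalings, other filters, a block for replicate number and fits without each mouse were alternatives. A striatal covariate, and all refits of the lists, were added after the data were seen. Scripts were tested on simulated counts. Pairs of mice of a group had a chi-square of at least 6.70 per degree of freedom, so none was counted as a repeat. Named were all members, listed genes with an unadjusted p under 0.05 (at most 4 per list) and the 3 genes of nearest profile for Nr3c1, Nr3c2 and Hsd11b1. Outside this rule, H6pd, Hsd11b2, Cyp11b1, Cyp11b2, Cyp21a1, Ddit4, Ncoa3, Nsd1, Crebbp and Carm1 were named after their values were seen. The members and lists were chosen with earlier results of these data known. Results for some listed genes are not reported here.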

Additional observations from a re-analysis of the deposited data

How the results depend on the processing

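None of the 10 members was called under any alternative. Of 150 values of members under alternatives, 144 kept their direction. These refits share the same mice and are not independent, and several changed only the test, scaling or filter. With a mouse left out, the sign turned for Hsp90ab1, Fkbp4, Ptges3 and Hsd11b1. With 1 mouse left out at a time, log2 fold changes ran from -0.163 to -0.050 for Ncoa1, from -0.170 to -0.062 for Ncoa2, from -0.150 to -0.024 for Ncor1, from -0.126 to -0.010 for Stip1, from -0.042 to 0.059 for Hsp90ab1, from -0.072 to 0.018 for Fkbp4, from -0.0058 to 0.051 for Ptges3, from -0.214 to 0.013 for Hsd11b1, and from 0.030 to 0.168 for Nr3c2. With the striatal covariate the value was -0.0045 for Hsp90ab1, -0.027 for Ncor1, -0.071 for Ncoa2, -0.063 for Fkbp4 and 0.015 for Ptges3. The number of members at an unadjusted p under 0.05 ran from 0 to 3 with a mouse left out, and their median log2 fold change from -0.052 to 0.0077. The 3 and the 0.0077 both came from leaving out control mouse 3, and the cause was not tested. The difference in the log2 ratio of Nr3c2 to Nr3c1 ran from -0.035 to 0.044, below 0 without control mouse 3 (-0.0067) or ELS mouse 1.

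The number of genes called in all was 2, and it was 18 with DESeq2, 28 with the likelihood ratio test, 4 when every gene with a read was kept, 31 with the striatal covariate, and 1 to 29 with a mouse left out, the 29 again without control mouse 3. With replicate number as a replicate block it was 7, with 0 members among them. Correlations between the deviations of mice that share a number were -0.119, 0.209 and -0.0306. Mice with different numbers were not compared in this way, so these values cannot decide whether the numbers pair the mice. The numbers were not taken to pair them. The 3 mice per group limit the precision, and the part of counting error in the spread of the members was not tested.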
